A study of Mus musculus with 6 samples.

Results

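The cytosolic ribosomal protein genes were followed in the liver of refed male F1 mice, the offspring of fathers that had or had not drunk inorganic arsenic (iAs). A gene was taken into the family by its name alone, as a protein-coding mouse gene called Rpl or Rps with a number and at most a short suffix, or Rplp0, Rplp1, Rplp2 or Rpsa. The rule found 84 genes among the 16727 genes analysed, of which 32 carry small subunit names and 52 carry large subunit names. All 84 had values in every liver, and 81 passed a filter of a mean FPKM (fragments scaled by gene length and by the size of the library) of at least 1 and were tested among 9695 genes. The 84 genes lie on 19 chromosomes, with 14 of them on chromosome 7 and 4 on the X chromosome.

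The conF1-M group held 3 wild-type males sired by fathers on normal water, and the iAsF1-M group held 3 wild-type males sired by fathers whose drinking water held 250 ppb of iAs over 6 weeks. All mothers were unexposed, all F1 mice were on normal chow and normal water, and livers were collected once the mice had refed for 7 h. The father, the litter and the age of each mouse were not given in the sources used here. The livers were therefore treated as independent, which could not be checked. P-values set the difference between the groups against the spread within groups, among these 6 livers.

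Cytosolic ribosomes are built from a small subunit, which reads the mRNA, and a large subunit, which joins the amino acids, and each subunit combines ribosomal RNA with a set of ribosomal proteins. The mRNAs of ribosomal proteins start with a run of pyrimidines, the 5′ terminal oligopyrimidine or TOP motif, through which mTOR signalling controls their translation when nutrients arrive. In the liver, which makes most plasma proteins, refeeding after a fast is a state in which this control is known to act.

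No ribosomal protein gene differed between iAsF1-M and conF1-M mice past the threshold, but most of the family lay slightly lower in iAsF1-M livers. The number called was 0 of 81 at an adjusted p under 0.05 (limma, Benjamini-Hochberg over all 9695 genes), against 6 of all genes, or 0.0619%. The smallest adjusted p of the family was 0.591, for Rps19. A log2 fold change below 0 was found for 78 of the 81 genes, and for 69.6% of all genes tested. The median log2 fold change was -0.13 in the family and -0.07 over all genes, and the median ratio of the group means of the family was 0.911. At an unadjusted p under 0.05, 4 of the 81 genes were lower, where 6.75% of all genes were lower, and 0 were higher, where 1.42% of all genes were higher.

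**Figure D1:**
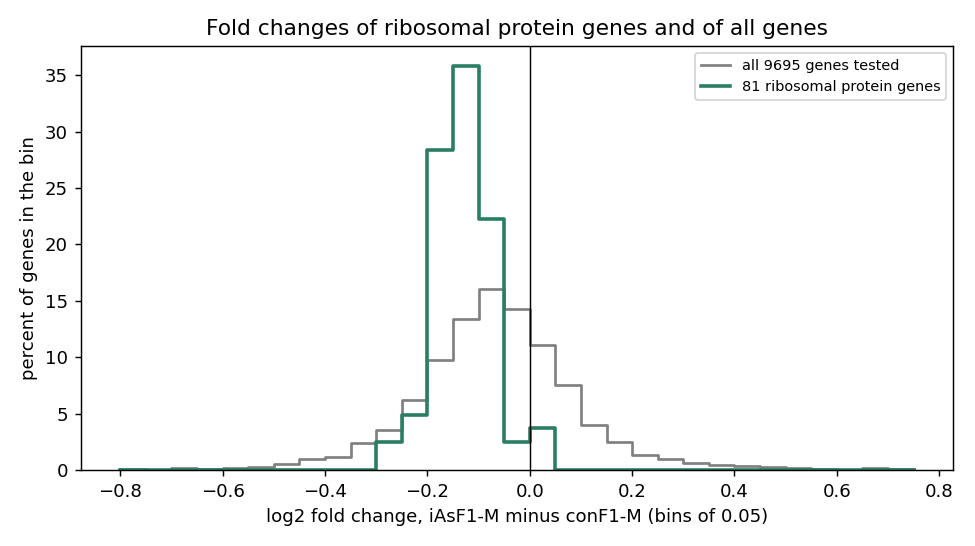
Histogram of log2 fold changes (iAsF1-M minus conF1-M, on log2(FPKM + 1)) in bins of 0.05 on the x axis, against the percent of genes in each bin on the y axis, for the 81 ribosomal protein genes (green) and all 9695 genes tested (grey, 82 of which lie outside the plotted range). Of the ribosomal protein genes, 70 (86.4%) lie between -0.2 and -0.05, where 39.2% of all genes lie.

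The liver-by-liver pattern was uneven. The summed FPKM of the 84 genes was 18839, 17844 and 19357 in conF1-M 1, 2 and 3. It was 16402, 18006 and 16913 in iAsF1-M 1, 2 and 3. The iAsF1-M 1 and 3 livers thus lay below every conF1-M liver, whereas iAsF1-M 2 lay above conF1-M 2, so the groups overlapped. The mean was 18680 ± 769 in conF1-M and 17107 ± 819 in iAsF1-M (SD, n = 3), a ratio of 0.916. The iAsF1-M 2 liver also stood apart in stress genes such as Cdkn1a (5.2 FPKM, against 0.46 to 0.54 in the others), chosen after their values were seen. Without iAsF1-M 2, all 81 members tested were below 0, as were 72.5% of all genes. The family median was then -0.17, the most negative of the fits that left out 1 liver. In that fit, 8 members were lower at an unadjusted p under 0.05, where 5.42% of all genes were, with 0 past the threshold. Without iAsF1-M 1, 77 members and 63.2% of all genes were below 0, with a family median of -0.10. Without iAsF1-M 3, these were 76 members, 67.7% and -0.12. Leaving out conF1-M 2 gave 80 members, 64.7% and -0.167, close to the fit without iAsF1-M 2. Leaving out conF1-M 1 gave 79 members, 65.4% and -0.12, and leaving out conF1-M 3 gave 78, 74.3% and -0.11. The family made up 2.88%, 2.72% and 2.81% of the summed FPKM of all genes in conF1-M livers and 2.34%, 2.80% and 2.58% in iAsF1-M livers.

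The extremes of most genes lay in 4 of the 6 livers. Of the 81 genes tested, 47 had their lowest value of the 6 livers in iAsF1-M 1 and 27 in iAsF1-M 3, against 5 in iAsF1-M 2. The highest value was in conF1-M 3 for 45 genes and in conF1-M 1 for 25. The iAsF1-M 1 liver was below all conF1-M livers for 75 genes, iAsF1-M 3 for 67 and iAsF1-M 2 for 32. All iAsF1-M livers were below all conF1-M livers for 27 genes of the family, while 11.8% of all genes had such a pattern, and 0 members had the opposite pattern.

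**Figure D2:**
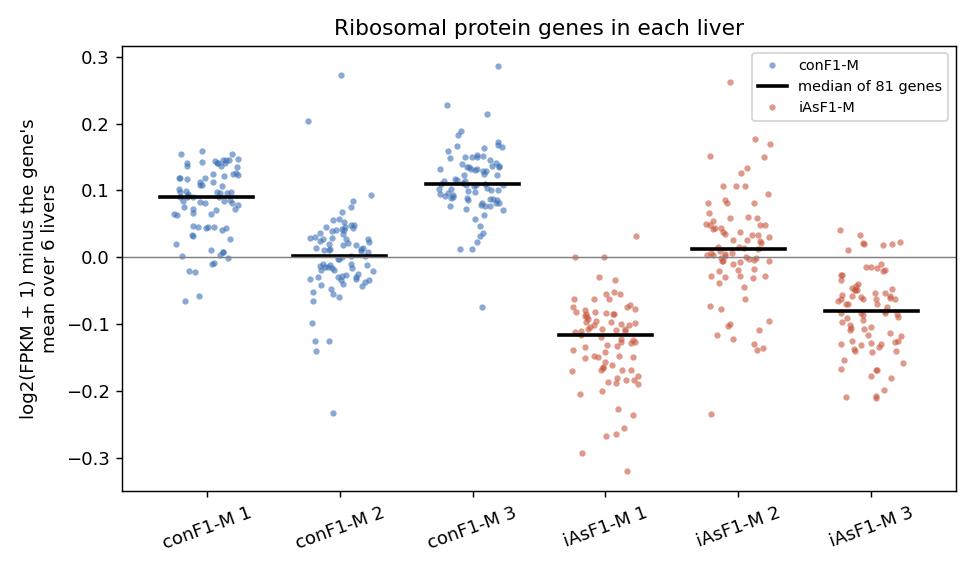
Deviation of each of the 81 ribosomal protein genes (points) from its own mean over 6 livers, in log2(FPKM + 1) on the y axis, for each liver on the x axis, with the median of the 81 genes as a black bar. The medians are 0.09, 0.00 and 0.11 in conF1-M 1, 2 and 3 and -0.12, 0.01 and -0.08 in iAsF1-M 1, 2 and 3, so conF1-M 2 and iAsF1-M 2 sit near each other.

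The genes moved together from liver to liver. The median correlation between pairs of members over the 6 livers was 0.769 for 3240 pairs, and 98.0% of the pairs correlated positively. The pairs share the same libraries and their scaling, and the difference between the groups enters the correlations. Such correlations were not computed for other genes, so whether they are particular to the family was not tested. The median SD within a group was 0.08 on the log2 scale in the family and 0.13 over all genes tested. Taking the family median of each liver off its values lowered the SD of the family to 0.05. The summed small subunit level divided by the summed large subunit level, stalk genes included and paralogs left out, was 0.665, 0.667 and 0.686 in conF1-M livers and 0.676, 0.695 and 0.674 in iAsF1-M livers. The balance of the subunits thus overlapped between the groups.

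The shift depended on how the libraries were scaled to each other. The 20 most abundant genes took 36.1%, 40.1% and 39.8% of the summed FPKM in conF1-M livers and 46.9%, 37.8% and 39.7% in iAsF1-M livers. The liver with the lowest family level, iAsF1-M 1, thus had the highest share of these genes. The next lowest, iAsF1-M 3, had nearly the same share as conF1-M 3, where the summed family level was highest. With scaling factors taken from the middle of the gene distribution (a trimmed mean of ratios), the median log2 fold change was -0.06 in the family and -0.00306 over all genes. Under that scaling 70 of 81 members and 51.1% of all genes were below 0, and 0 members had an unadjusted p under 0.05, where 3.47% of all genes were lower at that level. The summed FPKM ratio was then 0.963. Scaling by the libraries without those 20 genes gave a family median of -0.06, 70 of 81 members and 51.6% of all genes below 0, and a summed FPKM ratio of 0.963. Quantile normalization gave a family median of -0.07, with 75 of 81 members and 51.3% of all genes below 0. Scaling each library to the same summed FPKM left the family median at -0.13, with 78 of 81 members and 69.3% of all genes below 0. The summed FPKM ratio was then 0.919.

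Markers of other liver cells were summed in each liver, and 0 of them passed the threshold (smallest adjusted p 0.365, Dnase1l3, limma). At an unadjusted p under 0.05, 3 of 4 sinusoidal endothelial, 2 of 4 stellate and 1 of 4 Kupffer cell markers were lower. The 1 B cell marker tested was also lower at that level, as were 6.75% of all genes, and 0 markers in these lists were higher. All 4 endothelial and all 4 stellate markers had a log2 fold change below 0, as did 3 of 4 Kupffer cell markers and 69.6% of all genes. The summed FPKM of 4 sinusoidal endothelial markers (Clec4g, Dnase1l3, Kdr, Stab2) ranged from 42.3 to 53.5 in conF1-M livers and from 31.4 to 36.9 in iAsF1-M livers, with no overlap. Stellate markers ranged from 85.1 to 114 in conF1-M and from 79.98 to 86.5 in iAsF1-M, and Kupffer cell markers from 63.4 to 75.3 and from 37.5 to 79.4, both with overlap. The 5 hepatocyte markers, including Alb and Apoa1, summed to between 50365 and 67551 in all 6 livers, which fits the labelled tissue, and none of the markers measured in any list was at 0 in all livers. The part of the cell mixture in the ribosomal protein values was not tested, and in whole liver fewer cells of a type and less RNA per cell cannot be told apart.

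Levels within the family spanned a ratio of 79.6 between the highest and the lowest gene tested. The median member had a mean FPKM of 212, above 96.4% of all genes tested, and 67 of the 81 genes lay between 100 and 400 FPKM. Only Rps27, Rps2 and Rpl10 lay above 400.

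**Figure D3:**
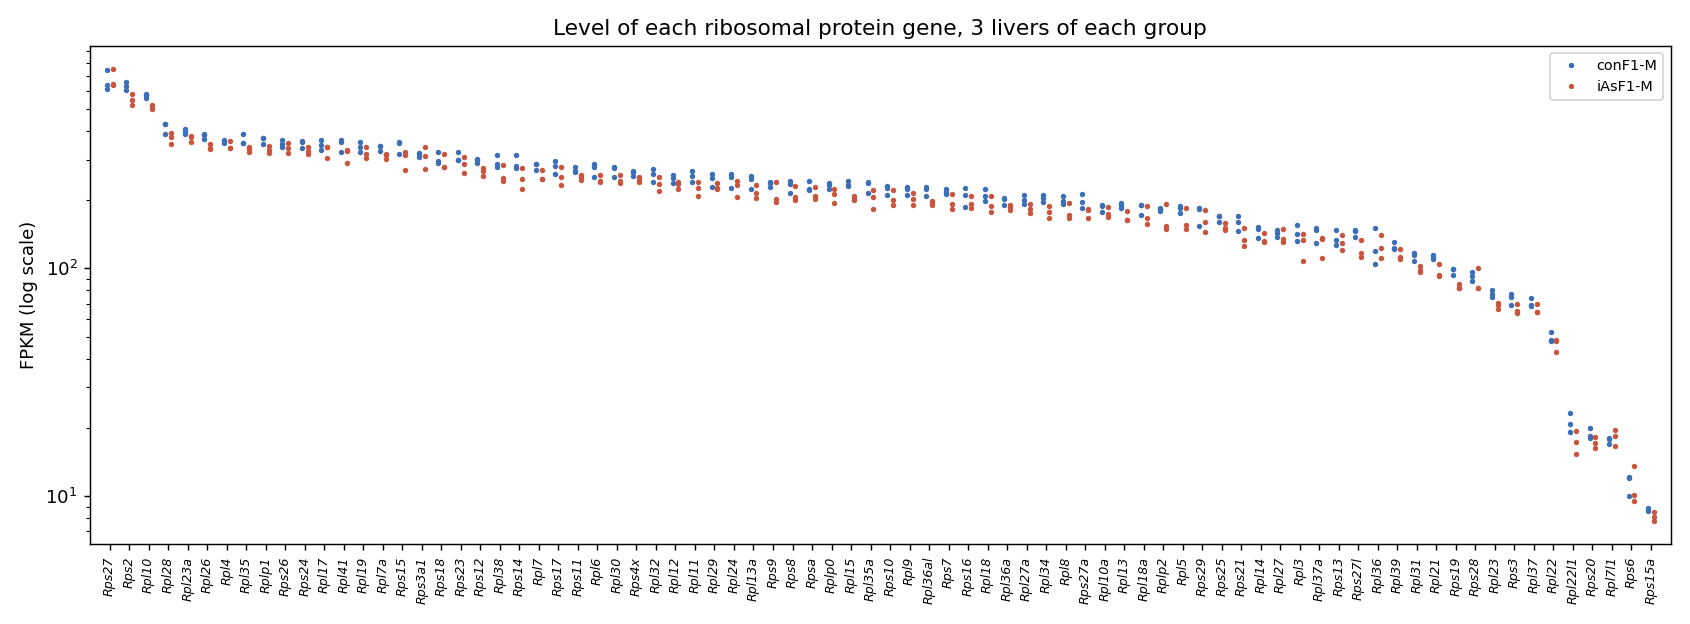
FPKM of 80 ribosomal protein genes tested (y axis, log scale) in each of 3 conF1-M livers (blue) and 3 iAsF1-M livers (red), with genes ordered by mean FPKM on the x axis. Levels fall slowly from Rps27 at a mean of 671 through most of the family and then steeply over the last genes to Rps15a at 8.43.

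Rps27, a zinc-binding small subunit protein, was the highest, with 639, 613 and 743 FPKM in conF1-M 1, 2 and 3 against 641, 753 and 639 in iAsF1-M 1, 2 and 3. The groups overlapped, and Rps27 was one of only 3 members with a log2 fold change above 0 (0.03, SE 0.13, adjusted p = 0.949, limma). Rps2, a small subunit protein near the mRNA entry, was at 631, 609 and 654 in conF1-M livers and 520.5, 549.9 and 581 in iAsF1-M livers. Every iAsF1-M liver was below every conF1-M liver, with a log2 fold change of -0.20 (SE 0.10, adjusted p = 0.616, limma). Rpl10, an X-linked large subunit protein that joins late in assembly, was at 579.9, 557 and 574 in conF1-M livers and 519.7, 501 and 514 in iAsF1-M livers, also without overlap (log2 fold change -0.16, SE 0.09, adjusted p = 0.625, limma).

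Rpl28 had 429.5, 388 and 429 FPKM in conF1-M livers and 352, 394 and 379 in iAsF1-M livers, where iAsF1-M 2 lay above conF1-M 2. Rpl23a, a protein at the exit of the peptide tunnel, had 409, 394 and 388 in conF1-M and 359, 377 and 382 in iAsF1-M. These 2 genes completed the 5 most abundant members, and their log2 fold changes were -0.15 (SE 0.10) and -0.09 (SE 0.09). Among these 5, the order by mean FPKM was Rps27, Rps2, Rpl10, Rpl28 and Rpl23a, and the ranges over the 6 livers overlapped between Rps27 and Rps2, between Rps2 and Rpl10 and between Rpl28 and Rpl23a, but not between Rpl10 and Rpl28.

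At the low end, chosen after their values were seen, were Rps15a at a mean of 8.43 FPKM, Rps6 at 11.2 and Rps20 at 17.98, although each is a core small subunit protein made in equal number with the others. Rps6, the target of S6 kinase downstream of mTOR, had 12.2, 10.01 and 12.0 FPKM in conF1-M livers and 10.1, 13.6 and 9.50 in iAsF1-M livers, and the groups overlapped. Rps15a had 8.64, 8.71 and 8.91 in conF1-M and 8.09, 8.5 and 7.74 in iAsF1-M, where every iAsF1-M liver was lower, with an adjusted p of 0.698 (limma). The transcript used here for Rps15a is 5179 bases long and that for Rps20 3706 bases, but that for Rps6 is only 878 bases. The length by which the deposited values were divided is not given in the sources used here. Levels of different members are therefore compared per an unknown length.

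Ribosomal protein genes are also hard to count because many have near-identical processed copies elsewhere in the genome. In the GENCODE M21 transcripts, 76 of the 81 genes tested shared at least 1 stretch of 100 bases with another annotated gene on either strand, and 31 shared over 50% of such stretches. These other genes are not all processed copies, since they include Snora7a for Rpl32 and Fam69a for Rpl5, so the share does not measure processed copies alone. The share was 98.4% for Rps27, 91.1% for Rpl5 and 83.6% for Rps6, and 0 for Rps3, Rps21, Rps27l and Rpl22. How reads that match several genes were counted is not given in the sources used here, so the levels of members with large shares are uncertain. Over the 81 genes, the shared percent and the mean FPKM had a Spearman correlation of 0.239, across genes that are not independent. By shared percent, the median log2 fold change was -0.13 for the 13 members with at most 10% shared, 12 of them below 0, and -0.13 for the 31 with over 50% shared, 29 of them below 0; the difference between them was not tested.

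The 10 members with the smallest unadjusted p were Rps19, Rps27l, Rpl22l1, Rpl21, Rpl15, Rpl31, Rpl23, Rpl34, Rps2 and Rps21, all with lower means in iAsF1-M mice. Rps19, a small subunit protein whose loss in humans causes Diamond-Blackfan anaemia, had FPKM of 99.2, 93.4 and 99.8 in conF1-M livers and of 85.05, 81.6 and 82.1 in iAsF1-M livers. All iAsF1-M livers were below all conF1-M livers, at 82.9 ± 1.87 against 97.5 ± 3.53 (SD, n = 3). The log2 fold change was -0.23 (SE 0.08, adjusted p = 0.591, limma), which did not pass the threshold.

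Among the large subunit proteins of this set, Rpl21 had 112, 109.8 and 114 FPKM in conF1-M livers and 93.8, 104 and 92.5 in iAsF1-M livers. Rpl15, an internal protein of the large subunit, had 229.9, 231 and 241 against 204, 207 and 199.99. Neither gene overlapped between the groups, and the log2 fold changes were -0.21 (SE 0.09) and -0.20 (SE 0.09), each with an adjusted p of 0.609 (limma). Rpl31 had 114, 107 and 117 in conF1-M livers and 96.6, 98.4 and 102 in iAsF1-M livers. Rpl23, which in humans can bind the p53 regulator MDM2, had 79.98, 74.6 and 77.3 against 69.0, 70.55 and 66.05. Rpl34 had 209, 194 and 204 against 167, 189 and 176. These 3 genes also showed no overlap, with log2 fold changes of -0.18, -0.17 and -0.19 (SE 0.09, 0.08 and 0.09) and adjusted p-values of 0.616 (limma). Rps21, in contrast, had 159.5, 145 and 170.25 FPKM in conF1-M and 125, 133 and 151 in iAsF1-M livers, which overlapped through iAsF1-M 3.

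By subunit, the small subunit had 30 of 31 genes below 0 with a median log2 fold change of -0.12, and the large subunit without its stalk had 42 of 43 with a median of -0.13. Of all genes tested, 69.6% were below 0. In each subunit, 1 gene was lower at an unadjusted p under 0.05, where 6.75% of all genes were, and 0 passed the threshold. Rpl36 was the large subunit gene above 0, named after its value was seen, with 119, 105 and 151 FPKM in conF1-M livers and 111, 139.6 and 122 in iAsF1-M livers. Its spread of 0.22 within groups (SD, log2) was far above its difference of 0.00 (SE 0.15).

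The stalk, a flexible arm of the large subunit on which elongation factors dock, is made of Rplp0 at the base and Rplp1 and Rplp2 as its tips. Rplp0 had 232, 222 and 237 FPKM in conF1-M livers and 211, 223 and 193 in iAsF1-M livers. Rplp1 had 373, 351 and 375 against 331, 321 and 343, and Rplp2 had 183, 179 and 184 against 153, 191 and 149. Only Rplp1 showed no overlap, and in Rplp2 the iAsF1-M 2 liver was the highest of all 6. The log2 fold changes were -0.14, -0.14 and -0.15 (SE 0.10, 0.09 and 0.12), none past the threshold. Rpsa, a small subunit protein that doubles as a laminin receptor, had 219.6, 224 and 241 FPKM in conF1-M and 207, 227 and 201 in iAsF1-M livers, which overlapped (log2 fold change -0.11, SE 0.10).

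Some ribosomal proteins have a second gene, a paralog, whose product can in some cases take the place of the parent protein in the ribosome. Of 7 paralogs listed here by name, Rpl10l and Rpl39l, which are known from the testis, and Rpl3l, known from muscle, stayed below the filter. Rpl10l had 0.17 and 0.08 FPKM in conF1-M 1 and 2, and Rpl39l had 0.22 in each of these and 0.06 in iAsF1-M 2, and both were listed at 0 in the other livers. Rpl3l did not exceed 0.09 FPKM in any liver. The 4 that were tested, Rps27l, Rpl36al, Rpl22l1 and Rpl7l1, had a median log2 fold change of -0.21, with a range from -0.27 to 0.04. Of these 4, 3 were below 0, where 69.6% of all genes were. The start of the coding sequence is shown for the 2 most abundant tested paralogs beside their parents, because the bases that differ decide whether reads of the pair can be told apart. The lines give the first 90 coding bases from GENCODE M21, 5′ to 3′, with bases that differ within a pair in capitals.
Rps27: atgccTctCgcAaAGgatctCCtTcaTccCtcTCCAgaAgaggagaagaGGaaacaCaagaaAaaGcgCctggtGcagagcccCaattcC
Rps27l: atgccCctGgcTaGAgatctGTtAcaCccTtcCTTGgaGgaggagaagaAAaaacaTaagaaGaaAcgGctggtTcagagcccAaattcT
Rpl36a: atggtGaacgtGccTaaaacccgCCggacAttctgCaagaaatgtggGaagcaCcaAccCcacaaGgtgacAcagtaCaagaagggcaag
Rpl36al: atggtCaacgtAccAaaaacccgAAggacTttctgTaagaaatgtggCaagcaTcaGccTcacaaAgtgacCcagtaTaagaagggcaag

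The stretches of Rps27 (chromosome 3) and Rps27l (chromosome 9) differ at 24 of these 90 bases, and those of Rpl36a (chromosome X) and Rpl36al (chromosome 12) at 14. Over the whole coding sequence, Rps27l and Rps27 were 76.1% identical with no identical run longer than 11 bases, and Rpl36al and Rpl36a were 87.9% identical with a longest run of 24 bases. Rpl22l1 was 66.9% identical to Rpl22, and Rpl7l1 was 50.3% identical to Rpl7. Coding reads of these pairs are thus separable by sequence, while the untranslated ends were not compared. Other annotated genes are a separate limit, since they shared 98.4% of the 100-base stretches of Rps27 and 83.6% of those of Rpl36a. Ratios to these parents carry that uncertainty.

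Rps27l, which in humans is induced by p53, had 145, 138 and 148 FPKM in conF1-M livers and 117, 112 and 133 in iAsF1-M livers. The groups did not overlap, and the means were 144 ± 5.19 and 121 ± 11.5 (SD, n = 3). The log2 fold change was -0.25 (SE 0.10, adjusted p = 0.593, limma), beside 0.03 for its parent Rps27. Within each liver, Rps27l stood at 22.7%, 22.5% and 19.9% of the Rps27 level in conF1-M and at 18.2%, 14.8% and 20.9% in iAsF1-M, which overlapped.

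Rpl22l1, the paralog of the RNA-binding large subunit protein Rpl22, had 19.1, 23.2 and 20.8 FPKM in conF1-M and 15.3, 17.3 and 19.3 in iAsF1-M livers. Only iAsF1-M 3 reached the conF1-M range, and the log2 fold change was -0.27 (SE 0.11, adjusted p = 0.609, limma), the most negative of the family. Its parent Rpl22 had 52.4, 48.0 and 48.4 FPKM in conF1-M and 43.1, 47.8 and 48.6 in iAsF1-M livers. The log2 fold change of Rpl22 was -0.09 (SE 0.09). Rpl22l1 stood at 36.5% to 48.3% of Rpl22 in conF1-M livers and at 35.6% to 39.7% in iAsF1-M livers, and 50.8% of the 100-base stretches of Rpl22l1 were shared with other genes.

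Rpl7l1, whose yeast relative acts in ribosome assembly, had 17.8, 18.01 and 16.9 FPKM in conF1-M livers and 18.3, 19.6 and 16.65 in iAsF1-M livers. It was the third gene above 0 (log2 fold change 0.04, SE 0.09), while Rpl7 had 286, 271 and 286 against 248, 269.7 and 246 and did not overlap between the groups (-0.14, SE 0.09). The ratio of Rpl7l1 to Rpl7 was 5.91% to 6.66% in conF1-M and 6.76% to 7.38% in iAsF1-M livers, without overlap. Rpl36al had 227, 208 and 222 FPKM in conF1-M and 197, 189 and 195.5 in iAsF1-M livers, and Rpl36a had 204, 190.1 and 202 against 181, 189 and 185. Their ratio was 109% to 111% in conF1-M livers and 99.98%, 106% and 109% in iAsF1-M livers, which did not overlap by a narrow margin.

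A ratio within a liver does not depend on scaling between livers. The differences in log2 ratio, iAsF1-M minus conF1-M, were -0.28 for Rps27l to Rps27, -0.19 for Rpl22l1 to Rpl22, 0.19 for Rpl7l1 to Rpl7 and -0.07 for Rpl36al to Rpl36a. The exact permutation p (two-sided, n = 3 against 3) was 0.2, 0.2, 0.1 and 0.1, and 0.2 for each after adjustment over the 4 pairs. With 3 livers a group, 0.1 is the smallest p this test can give, so none could pass 0.05.

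**Figure D4:**
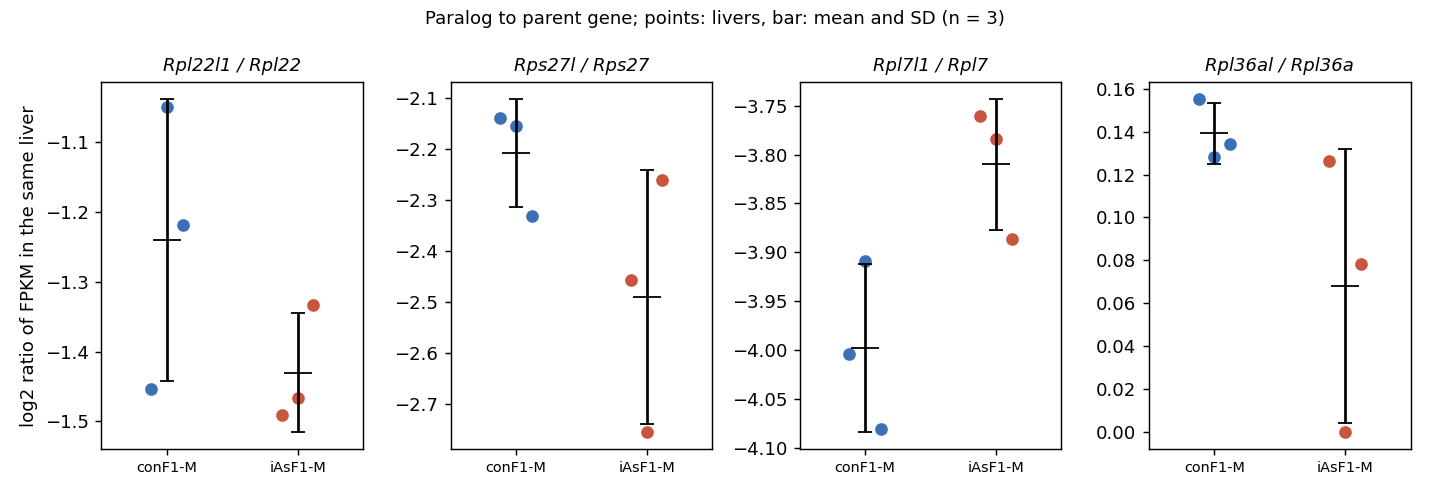
Log2 ratio of the FPKM of each paralog to that of its parent gene in the same liver (y axis, a separate scale in each panel) for 3 conF1-M (blue) and 3 iAsF1-M (red) livers, with the mean and SD in black. The groups separate for Rpl7l1 to Rpl7 (higher in iAsF1-M) and for Rpl36al to Rpl36a (lower), and overlap for the other pairs, with exact permutation p-values of 0.1 to 0.2.

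The TOP motif is a feature of the start of the mRNA, so the annotated starts were searched for it. Starts from RefSeq (GRCm38.p6) were matched by symbol for 64 of the 84 genes. A C followed by at least 4 pyrimidines exactly at an annotated start, on the sense strand, was found in 13 of these 64 genes (20.3%), in 3.01% of all 27025 genes with a start and in 3.05% of the 7799 tested here. Within 25 bases of a start it was found in 84.4% of members and 59.3% of all genes. Starts with the run exactly at the start are shown, from Rpl15, Rps27, Rpl28 and Rps6. Another 3 without it at that base are from the paralogs Rps27l, Rpl22l1 and Rpl7l1, since these members are described above. The Rps27l and Rpl22l1 lines do hold such a run a few bases after the start, so both have it within 25 bases. Each line gives 25 bases before and 20 bases from the annotated start, 5′ to 3′ on the strand of the gene, with the pyrimidine run at the start in capitals.
Rpl15 (chr14:18270967-18271011, minus strand): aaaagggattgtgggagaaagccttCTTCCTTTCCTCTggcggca
Rps27 (chr3:90213629-90213673, minus strand): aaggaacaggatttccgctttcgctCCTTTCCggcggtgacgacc
Rpl28 (chr7:4792940-4792984, plus strand): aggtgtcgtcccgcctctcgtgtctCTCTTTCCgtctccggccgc
Rps6 (chr4:86857348-86857392, minus strand): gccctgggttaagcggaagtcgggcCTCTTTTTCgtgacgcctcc
Rps27l (chr9:66946061-66946105, plus strand): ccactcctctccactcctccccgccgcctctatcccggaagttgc
Rpl22l1 (chr3:28805483-28805527, plus strand): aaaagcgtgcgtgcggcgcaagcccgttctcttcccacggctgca
Rpl7l1 (chr17:46782637-46782681, minus strand): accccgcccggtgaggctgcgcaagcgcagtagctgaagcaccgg

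Of other short motifs searched on both strands from 250 bases before to 50 bases after a start, CCGGAAG, the core of ETS factor sites, was found in 40.6% of the 64 members, 9.93% of all genes and 22% of the genes tested here. AAGATGG, the core of YY1 sites, was found in 15.6%, 7.28% and 9.04%. TGACGTCA, the cyclic AMP response element, was found in 7.81%, 2.03% and 3.63%, and TATAAA, the TATA box, in 10.9%, 15.7% and 9.09%. CCGGAAG ends in the AAG with which AAGATGG begins, so their matches can overlap, and a match is a description of the window only.

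Ribosome genes that the naming rule leaves out also had lower means in iAsF1-M mice. Fau, which encodes a small subunit protein fused to a ubiquitin-like protein, had 315, 286 and 333 FPKM in conF1-M livers and 237, 336 and 282 in iAsF1-M livers. Rack1, a scaffold protein on the small subunit, had 147, 136 and 150.3 against 133, 141 and 122. Both overlapped between the groups, with log2 fold changes of -0.14 and -0.13 (SE 0.14 and 0.10).

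In the other lists of translation genes, 0 genes passed the threshold (limma), and the counts at an unadjusted p under 0.05 are given with each list. Of all genes tested, 69.6% were below 0, 6.75% were lower at an unadjusted p under 0.05 and 1.42% were higher. Of 19 other TOP mRNA genes tested, among them Rack1 and Fau, 16 were below 0, with a median log2 fold change of -0.08, and 0 had an unadjusted p under 0.05. The smallest p of that list was that of Eif4b, an mTOR-responsive helicase cofactor, with 81.9, 72.9 and 71.97 FPKM in conF1-M and 63.3, 64.3 and 72.5 in iAsF1-M livers (log2 fold change -0.18, SE 0.10). Of 55 translation initiation and elongation factors, 37 were below 0 with a median of -0.04, and 1 had an unadjusted p under 0.05. This was Eif3j1, with 35.3, 35.2 and 36.96 FPKM in conF1-M livers and 36.4, 21.3 and 20.1 in iAsF1-M livers, where iAsF1-M 1 stayed at the control level; it has a near-identical copy, Eif3j2, that reads may be shared with.

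Of 28 mTOR and TOP regulators, 22 (78.6%) were below 0, against 69.6% of all genes, with a median of -0.07. Pdcd4, an inhibitor of the initiation helicase, had 36.95, 35.1 and 31.4 FPKM against 24.45, 25.8 and 32.2 (log2 fold change -0.32, SE 0.12, adjusted p = 0.593, limma). Mlst8, a subunit of mTOR complexes, had 1.91, 1.60 and 1.62 against 1.20, 1.26 and 1.48 (-0.23, SE 0.09, adjusted p = 0.606, limma). Both had an unadjusted p under 0.05 (7.14% of the list, against 6.75% of all genes lower at that level), and only Mlst8 was without overlap.

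Ribosome biogenesis genes, which encode the nucleolar machinery that assembles the subunits, leaned the other way. Of 93 tested, 59 were above 0 and 34 below, with a median log2 fold change of 0.06, against -0.07 over all genes. At an unadjusted p under 0.05, 4 were higher and 0 lower, where 1.42% and 6.75% of all genes were, and 8 were without overlap upward and 4 downward, where 2.37% and 11.8% of all genes were. Nop58, a core box C/D snoRNP protein, had 6.95, 6.72 and 6.40 FPKM in conF1-M livers and 10.45, 9.98 and 7.42 in iAsF1-M livers (0.41, SE 0.13, adjusted p = 0.579, limma). Nolc1, a nucleolar chaperone of snoRNPs, had 4.87, 5.81 and 6.07 against 7.27, 7.85 and 6.72 (0.33, SE 0.10, adjusted p = 0.579, limma). Heatr1, a factor of early small subunit assembly, had 1.96, 2.11 and 1.84 against 2.64, 2.75 and 2.33 (0.27, SE 0.09, adjusted p = 0.584, limma). In all 3 genes every iAsF1-M liver was above every conF1-M liver, yet none passed the threshold, and the difference between this list and the ribosomal protein genes was not tested.

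Mitochondrial ribosomal proteins, which serve the separate ribosome of the mitochondrion, had 61 of 78 genes below 0 and a median of -0.08, and 4 (5.13%) were lower at an unadjusted p under 0.05, where 6.75% of all genes were, so the list lay close to the background. Mrpl14 had 49.4, 46.3 and 53.9 FPKM in conF1-M and 37.1, 36.96 and 44.7 in iAsF1-M livers, without overlap (-0.33, SE 0.11, adjusted p = 0.584, limma). OXPHOS subunits, the enzymes of the respiratory chain, had 69 of 74 below 0 and a median of -0.11, the nearest to the ribosomal protein genes among these lists, with 0 at an unadjusted p under 0.05. Ndufb11, a complex I subunit, had 142, 136 and 149 against 112, 133 and 125 (-0.21, SE 0.10). Of 1091 genes outside the family with a mean FPKM of at least 50, 71.95% were below 0 and the median was -0.08, while 73 of the 75 members at that level were below 0 with a median of -0.14.

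**Figure D5:**
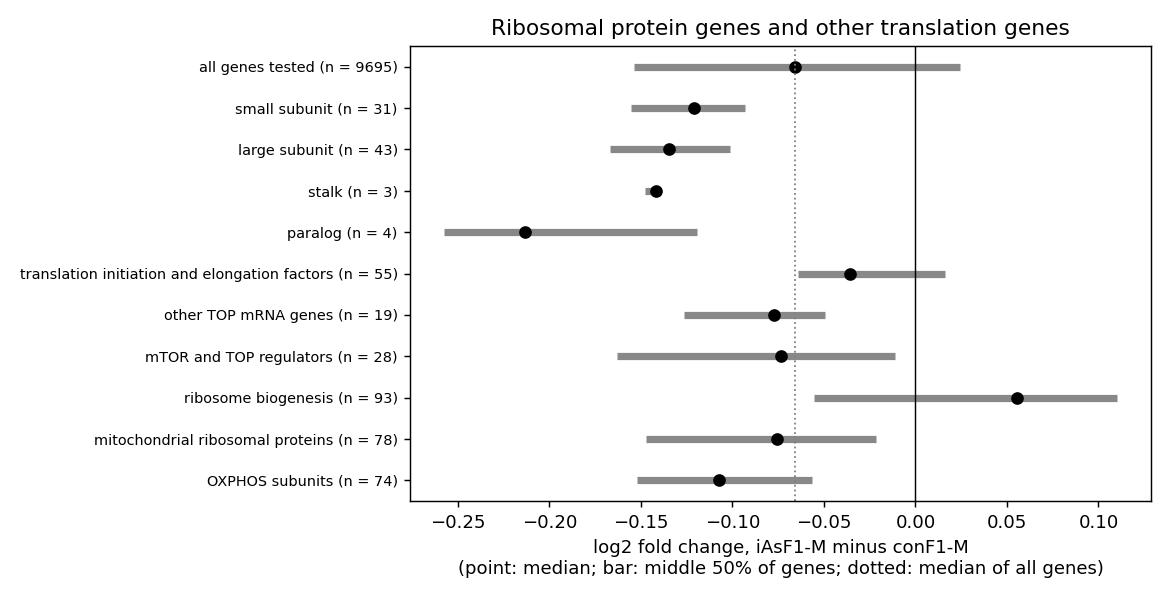
Median log2 fold change (point) and middle 50% of genes (bar) on the x axis for ribosomal protein genes by subunit and for other lists, on the y axis with the number of genes tested; the dotted line is the median of all genes. The subunits lie at -0.12 to -0.14 and the paralogs, 4 genes that range from -0.27 to 0.04, at -0.21, left of the median of all genes at -0.07. Ribosome biogenesis genes lie at 0.06.

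Known p53 targets, listed because unassembled ribosomal proteins can activate p53, were split, with 7 of 15 below 0, where 69.6% of all genes were. At an unadjusted p under 0.05, 2 were lower, where 6.75% of all genes were, and 0 passed the threshold (limma). Bax, an apoptosis effector, had 10.8, 9.25 and 9.73 FPKM in conF1-M livers and 8.14, 8.32 and 7.34 in iAsF1-M livers (-0.29, SE 0.09, adjusted p = 0.584, limma). Trp53inp1 had 7.36, 12.9 and 8.51 against 11.1, 20.1 and 12.0 (0.53, SE 0.25), with overlap. The iAsF1-M 2 liver stood apart on some of these genes, chosen after their values were seen. Cdkn1a, a cell cycle inhibitor, had 5.2 FPKM in that liver and 0.46 to 0.54 in the others, and Gdf15, a stress-induced cytokine, had 6.38 against 0.2 to 1.75. Btg2 had 7.47 against 1.45 to 3.45. This is also the iAsF1-M liver whose ribosomal protein level lay in the conF1-M range, and the part of this state in the family's values was not tested.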

How the data were processed

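Liver RNA of 3 conF1-M and 3 iAsF1-M mice was analysed, with groups and numbers from the sample labels. The authors removed low-quality paired-end reads and mapped the others with HISAT2 to the GRCm38 genome. The deposited values are FPKM with 2 decimals, and the program, annotation, gene length and treatment of multiply matching reads behind them are not given in the sources used here. Of 16743 identifiers, 16722 had a GENCODE M21 name, and 16 listed on 2 lines, none of the family, were left out. Differences were tested with limma 3.58.1 (R 4.3.3, variance trend, two-sided, checked on simulated data) on log2(FPKM + 1) for genes whose mean FPKM reached 1, with Benjamini-Hochberg adjustment over all 9695 genes; fold changes are on that scale and understate changes of low genes. Steps between low FPKM of genes with 1 transcript gave an estimated 22500000 to 24150000 fragments a library, with 48.1% to 58.8% of values within 0.15 of a whole number (30% by chance). Named genes were those past the threshold, or else the 10 smallest p-values, the 5 most abundant, paralogs with parents, stalk genes, Rpsa, untested members, Fau, Rack1, and up to 3 smallest p-values of each list. Values of single genes that are withheld are not reported here. Members and lists were chosen with earlier results of these data known. Nuclear-retained and mitochondrially encoded transcripts, listed as signs of RNA quality, were not analysed here. Markers of cholangiocytes, T cells, B cells, red cells and proliferation summed to 8.20 to 13.8, 0.44 to 0.72, 2.20 to 3.14, 643 to 1799 and 0.66 to 0.81 FPKM in conF1-M livers and 9.04 to 18.5, 0.46 to 1.01, 1.39 to 1.94, 678 to 1134 and 0.55 to 0.77 in iAsF1-M livers.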

Additional observations from a re-analysis of the deposited data

How the results depend on the processing

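The number of ribosomal protein genes past the threshold was 0 under all 21 alternatives, with a smallest adjusted p of 0.16, for Rps27l without iAsF1-M 3. The median log2 fold change of the family was below 0 under each of them. It was -0.059 with trimmed-mean scaling and -0.061 when scaled without the 20 most abundant genes, with summed FPKM ratios of 0.963 and 0.963. It was -0.0062 when scaled to the median ribosomal protein gene, which levels the family by construction; this was chosen after seeing the data and moved the median of all genes from -0.066 to 0.041. Under that scaling 47 of 81 members were below 0, against 78, and members such as Rpl22 (0.034), Rpl23a (0.036), Rpl36a (0.025), Rps4x (0.031) and Rpsa (0.019) were above 0, which says nothing of single genes. Leaving out 1 liver at a time gave family medians of -0.174 (without iAsF1-M 2) to -0.102 (without iAsF1-M 1). These fits called 3 to 72 genes in all, the 72 without iAsF1-M 3. At an unadjusted p under 0.05, 0 to 8 members were lower in them, where 3.22% to 13.3% of all genes were. Such fits gave Rpl7l1 a value of -0.010 (iAsF1-M 2 left out) and Rps27 values from -0.051 (iAsF1-M 2 left out) to 0.109 (conF1-M 3 left out), with -0.029 when conF1-M 2 was left out. In the main fit, 4 of 81 members were lower at an unadjusted p under 0.05, where 6.75% of all genes were. With no filter on low values, 10 of 84 were, where 6.41% of all genes were. The called genes numbered 3 with that setting and 1 with a minimum mean FPKM of 10, where fewer genes were tested; otherwise the cause was not tested. Of genes at an unadjusted p under 0.05, 82.6% were lower, against 52.4% with trimmed-mean scaling, 51.2% with quantile normalization and 53% without the 20 most abundant genes, and no member was then among them.

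Deviations of livers with the same replicate number had correlations of 0.167, -0.102 and -0.0206 for numbers 1, 2 and 3. Those of livers with different numbers ranged from -0.13 to 0.168. With 3 livers a group, these values cannot show whether the numbers mark a pairing. With a replicate block, 0 members and 5 genes in all were called, and 1 member was lower at an unadjusted p under 0.05, against 4 without it. The shares of all genes lower at that level were 6.11% with the block and 6.75% without it.

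With 3 livers a group, the median SE of a member was 0.10 on the log2 scale, and 73 of the 81 changes were under 2 SE, so differences of the size seen here were not resolved gene by gene.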
